A study of Drosophila melanogaster with 18 samples.

Results

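The neuronal marker and synaptic genes elav, fne, brp, para, cac, Csp, VGlut, Cha, Gad1 and futsch were measured by RNA sequencing in whole Drosophila melanogaster. These 10 genes were taken by symbol from 14542 gene entries of the authors' deposited tables, and all 10 were found at each of 3 stages. Of the 10, 9 had an entry of their own and Cha stood in 1 entry merged with VAChT. RNA was sequenced from animals carrying the Nxt1 alleles DG05102 and Z2-0488 in trans, labelled with the strain yw, and from w1118 controls. Both genotypes were collected as wandering larvae of the last instar with blue guts after feeding on food dyed with 0.05% bromophenol blue, as stationary larvae with clear or pale guts, and as white prepupae within the first hour of pupal life. Each genotype and stage had 3 samples, which makes 18. The labels do not say whether the 3 samples came from separate crosses or cultures, and the genotypes differ in strain label as well as in Nxt1, so allele and background cannot be told apart.

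Neurons are recognised by RNA-binding proteins of the ELAV family, by the machinery that loads and releases synaptic vesicles at the active zone, by the channels that fire and read the action potential, and by the enzymes and transporters that define each transmitter. In the fly, motor neurons use glutamate, most sensory neurons use acetylcholine, and GABA is the main inhibitory transmitter. Nxt1 is the small partner of the export receptor that takes messenger RNA out of the nucleus.

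The authors' deposited table of each stage held 1 pooled level per genotype, in FPKM (fragments mapped per kilobase of a transcript, scaled for the size of the library). No level per sample and no spread between samples can be given, and the depth of each sample is unknown. The error printed after a log2 fold change is a standard error derived from the authors' Cuffdiff statistic, q is the authors' adjusted p-value, and a gene was called when its status was OK and its q was at most 0.05. Any p or q then measures the spread between 3 samples per group, which may be technical. Nxt1 itself had 9.28, 15.5 and 17.9 FPKM in trans-heterozygous wandering larvae, stationary larvae and prepupae, against 11.6, 11.5 and 10.6 FPKM in w1118. It was not called (q = 0.998, 0.788 and 0.480), and since no label says what the alleles change in the gene, its level does not check the genotype.

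None of the 10 neuronal genes was called between trans-heterozygotes and w1118 at any stage. In wandering larvae 0 of 10 tested genes passed, in stationary larvae 0 of 10, and in prepupae 0 of 9, para being listed as not tested there. Over all tested entries 11.8%, 17.9% and 16.9% were called by stage, with 2.29%, 4.7% and 4.03% higher and 9.49%, 13.2% and 12.9% lower in trans-heterozygotes. At an unadjusted p under 0.05 the counts were 1, 0 and 0. The levels nevertheless lay mostly on 1 side: the trans-heterozygote was above w1118 in 27 of 29 tested values, and in 9 of 10, 9 of 10 and 9 of 9 genes by stage. The 29 values repeat the same genes over the stages and are not separate observations. Among all tested entries the share with the higher level in trans-heterozygotes was 48.9%, 46.1% and 45.1% by stage. The median log2((FPKM + 1) ratio) of the 10 genes was 0.29, 0.29 and 0.17 by stage, a median fold of 1.22, 1.22 and 1.13, against -0.01, -0.04 and -0.05 for all tested entries. The error of this median cannot be had without values per sample. In 3 values the isoforms of an entry summed to less than the entry in trans-heterozygotes, for elav in wandering larvae and for fne in stationary larvae and prepupae. With isoform sums in place of the gene entries, a comparison added after seeing the data, the trans-heterozygote was above w1118 in 26 of 29 values, fne in stationary larvae being lower, and the medians were 0.29, 0.29 and 0.14.

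**Figure D1:**
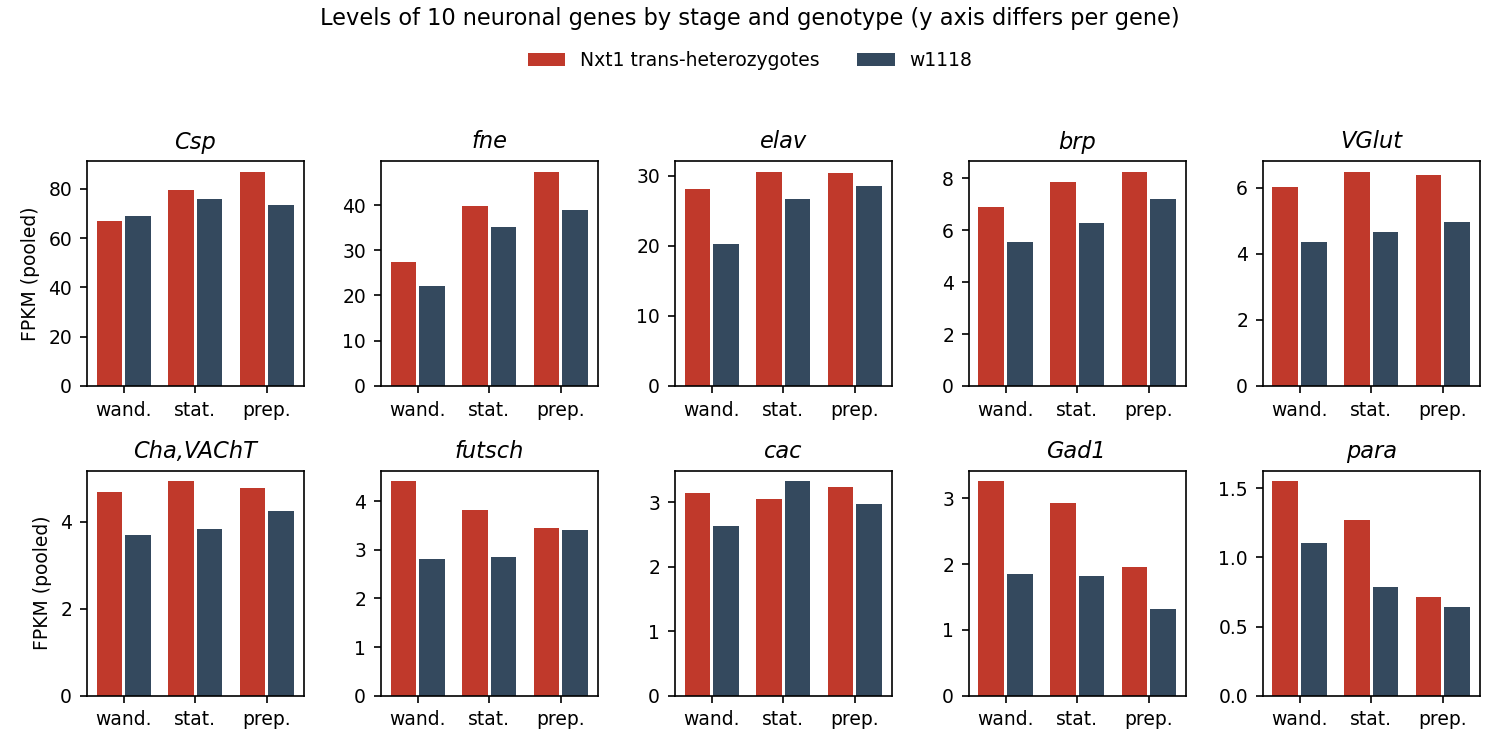
Pooled FPKM (y axis, starting at 0 and differing per gene) of the 10 genes in wandering larvae, stationary larvae and white prepupae (x axis), with Nxt1 trans-heterozygotes as red bars left of w1118 as dark bars, and no error bars because 1 pooled value per group was deposited. The red bar was higher in 28 of 30 pairs, the exceptions being Csp in wandering larvae and cac in stationary larvae.

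The pan-neuronal RNA-binding genes came first in level after Csp. The gene elav encodes the nuclear RNA-binding protein that is the standard marker of fly neurons. It lies on X:403451-424324, minus strand, in the coordinates of the deposited tables (counted from 1, in a build that is not given in the sources used here), where its span overlaps arg and CG4293. It had 28.2, 30.6 and 30.4 FPKM in trans-heterozygous wandering larvae, stationary larvae and prepupae, against 20.2, 26.7 and 28.5 FPKM in w1118. The genotype difference in elav was widest in wandering larvae, at a log2 fold change of 0.48 ± 0.32 (q = 0.554), and 0.09 ± 0.22 in prepupae (q = 0.882). In trans-heterozygous wandering larvae the elav isoforms summed to 25.1 FPKM, 3.09 FPKM short of the entry, and on isoform sums the fold there was 1.24 in place of 1.39. Its paralog fne (found in neurons, X:12811510-12844450, plus strand) encodes a mainly cytoplasmic relative. It had 27.4, 39.8 and 47.4 FPKM in trans-heterozygotes, against 22.1, 35.1 and 38.9 FPKM in w1118. The fne folds were 1.24, 1.13 and 1.22, the last with a 95% interval of 0.970 to 1.53 (q = 0.293). On isoform sums, which in trans-heterozygotes left out 6.60 FPKM of the entry in stationary larvae and 8.25 FPKM in prepupae, the fne folds at these stages were 0.946 and 1.01, so its direction in stationary larvae turned. How the authors' counting treated reads shared among these paralogs is not given in the sources used here. The third family member, Rbp9, had 11.8, 9.73 and 5.97 FPKM in trans-heterozygotes and 16.5, 7.995 and 6.10 FPKM in w1118, and was not called.

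At the active zone, brp encodes Bruchpilot, the ELKS-family scaffold of the T-bar, and cac encodes the pore-forming subunit of the presynaptic calcium channel. The brp gene (2R:5391270-5428822, plus strand) had 6.88, 7.87 and 8.26 FPKM in trans-heterozygotes, against 5.55, 6.29 and 7.21 FPKM in w1118. Its log2 fold changes of 0.31 ± 0.25, 0.32 ± 0.24 and 0.20 ± 0.20 each lay within 2 standard errors of 0. The cac gene (X:11825982-11879120, minus strand) had 3.14, 3.05 and 3.23 FPKM in trans-heterozygotes and 2.64, 3.32 and 2.97 FPKM in w1118. It was 1 of the 2 exceptions to the common direction, at -0.12 ± 0.31 in stationary larvae. The sodium channel gene para (X:16352900-16421447, minus strand, overlapping Cnx14D), which carries the action potential, had the lowest level of the 10 in all 6 groups. It had 1.55, 1.27 and 0.711 FPKM in trans-heterozygotes, against 1.101, 0.788 and 0.642 FPKM in w1118. Its log2 fold change was 0.49 ± 0.40 in wandering larvae and 0.69 ± 0.49 in stationary larvae.

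Csp encodes the cysteine string protein, a co-chaperone on synaptic vesicles, and had the highest level of the 10 in all 6 groups. The gene lies on 3L:22260668-22266845, plus strand. It had 67.1, 79.7 and 87.0 FPKM in trans-heterozygotes, against 69.2, 75.8 and 73.7 FPKM in w1118. Its folds of 0.970, 1.05 and 1.18 had among the narrowest 95% intervals, 0.708 to 1.33, 0.776 to 1.43 and 0.918 to 1.52, so a 2-fold rise or fall lay outside them at every stage.

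The 3 transmitter genes stand for glutamate, acetylcholine and GABA. VGlut, the vesicular glutamate transporter of motor neurons, lies on 2L:2391660-2416720, plus strand, and overlaps the merged entry CG18641,CG31948. It had 6.02, 6.49 and 6.38 FPKM in trans-heterozygotes and 4.37, 4.66 and 4.97 FPKM in w1118, at folds of 1.38, 1.39 and 1.28. None of these folds exceeded its error far enough to be called (q = 0.633, 0.444 and 0.551). Cha encodes choline acetyltransferase, and VAChT, the vesicular acetylcholine transporter, is nested in the same locus (3R:14531174-14558068, plus strand). The merged entry had 4.69, 4.93 and 4.78 FPKM in trans-heterozygotes, against 3.70, 3.83 and 4.25 FPKM in w1118, with a standard error of 1.63 on the log2 fold change in wandering larvae. Split by symbol in the isoform table, the Cha isoforms summed to 1.57, 1.43 and 1.015 FPKM in trans-heterozygotes and to 1.15, 1.004 and 1.002 FPKM in w1118. The VAChT isoform carried the larger share, with 3.12, 3.50 and 3.77 FPKM in trans-heterozygotes and 2.55, 2.82 and 3.25 FPKM in w1118. Gad1, the glutamate decarboxylase that makes GABA (3L:4074077-4092706, minus strand, overlapping CG14989), had 3.26, 2.94 and 1.95 FPKM in trans-heterozygotes, against 1.84, 1.82 and 1.31 FPKM in w1118. Its folds of 1.77, 1.61 and 1.49 were the largest or second largest of the 10 at each stage, and its 95% interval in wandering larvae ran from 0.623 to 5.01.

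The gene nearest to the threshold was futsch, which encodes the microtubule-associated protein of the MAP1B family that organises axons and synaptic boutons. It lies on X:1303102-1345400, plus strand. In wandering larvae futsch had 4.40 FPKM in trans-heterozygotes and 2.81 FPKM in w1118, a fold of 1.57 with a 95% interval of 1.14 to 2.16 (unadjusted p = 0.00597, q = 0.0505 by the authors' Cuffdiff test). In stationary larvae it had 3.83 FPKM in trans-heterozygotes and 2.85 FPKM in w1118 (q = 0.252), and in prepupae 3.44 and 3.41 FPKM. The futsch effect in prepupae minus that in wandering larvae was -0.63 ± 0.31 and did not pass (two-sided normal test on the derived errors, q = 0.831 after Benjamini-Hochberg adjustment over all entries). No difference of the genotype effect between stages passed for any of the 10 genes, against 0.66%, 0.861% and 1.06% of all entries for stationary minus wandering, prepupae minus stationary, and prepupae minus wandering.

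**Figure D2:**
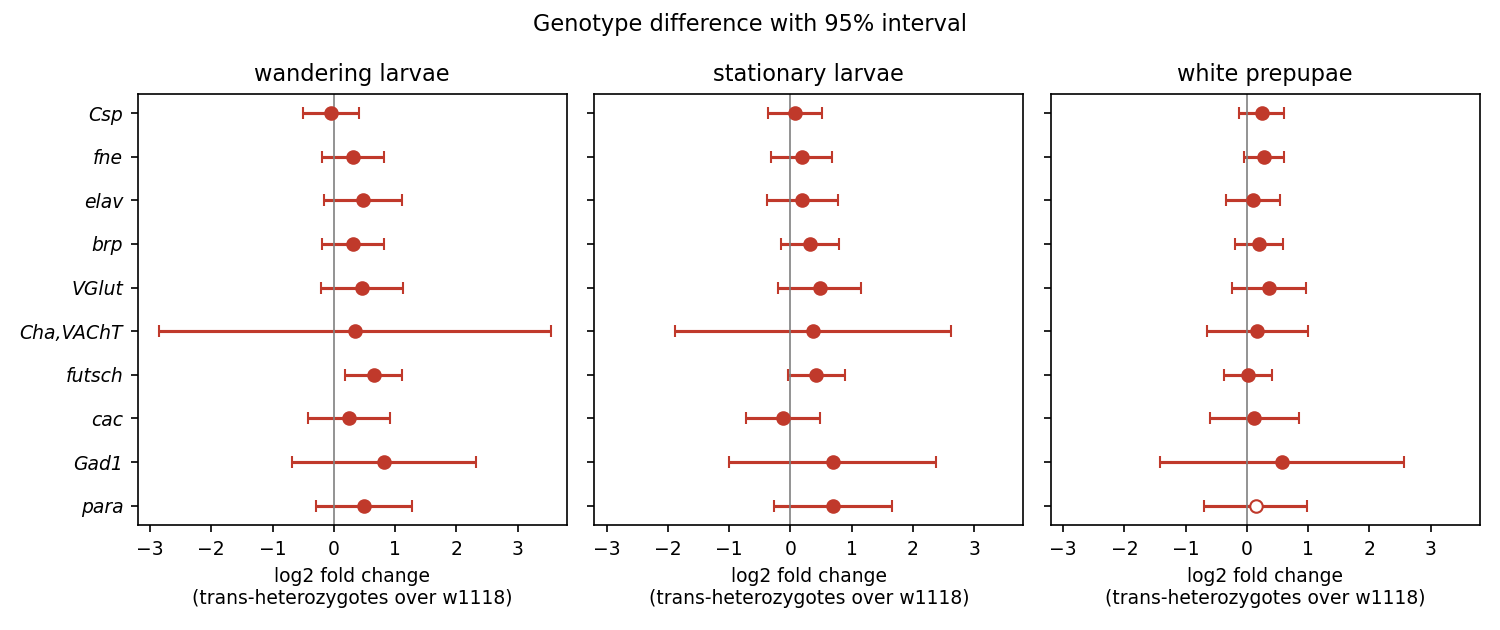
Log2 fold change of Nxt1 trans-heterozygotes over w1118 (x axis) for the 10 genes (rows, ordered by level), 1 panel per stage, with points for the authors' value, lines for the 95% interval and an open point where the authors made no test. All intervals include 0 except that of futsch in wandering larvae, whose q was 0.0505.

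The order of levels among the 10 genes was nearly the same in both genotypes and at all stages. Since FPKM is scaled by transcript length, levels can be set side by side within a group. Csp was first in all 6 groups, elav and fne took the places 2 and 3, brp held place 4, VGlut 5, the Cha entry 6 and para 10. The places 7 to 9 were shared by futsch, cac and Gad1. The neighbours elav and fne changed places between the genotypes in wandering larvae, at 28.2 and 27.4 FPKM in trans-heterozygotes and at 20.2 and 22.1 FPKM in w1118. On isoform sums elav had 25.1 FPKM in these trans-heterozygotes, so fne was ahead in both genotypes. Without values per sample, neighbouring levels this close cannot be separated.

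Levels of different stages come from tables that the authors scaled separately, so the following are values set side by side with no test. The fne level in prepupae was 1.73 times that in wandering larvae among trans-heterozygotes and 1.76 times among w1118. The corresponding ratios were 1.08 and 1.41 for elav, 0.781 and 1.21 for futsch, 0.599 and 0.712 for Gad1, and 0.459 and 0.583 for para. Thus fne was the gene with the highest ratio and para the gene with the lowest, in both genotypes. On isoform sums trans-heterozygotes had 39.1 FPKM of fne in prepupae and 27.4 FPKM in wandering larvae. That ratio lay further below the one in w1118 than the ratio on gene entries did. For elav these sums were 30.4 and 25.1 FPKM in trans-heterozygotes, so that ratio lay above the one on gene entries.

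Start-site groups, the sets of isoforms that share a transcription start, showed 1 difference that the whole-gene values did not. Of 23 such groups in the 10 entries, 12, 12 and 10 were tested by stage and 0, 0 and 1 were called, against 8.65%, 13.6% and 13.6% of all tested groups. The called group was the last of 3 in fne. It had 2.24, 6.60 and 8.25 FPKM in trans-heterozygous wandering larvae, stationary larvae and prepupae, against 1.22, 1.55 and 0.862 FPKM in w1118. In prepupae it rose 9.57-fold (95% interval 3.30 to 27.8, log2 fold change 3.26 ± 0.78, q = 0.000545). Its stationary difference of 4.25-fold was not called (q = 0.111), nor was that in wandering larvae (q = 0.994). The first fne group had 8.09 FPKM in trans-heterozygous prepupae and 7.62 FPKM in w1118, and the second had 31.0 and 30.4 FPKM, neither called. The last group thus made up 17.4% of the fne entry in trans-heterozygous prepupae and 2.22% in w1118.

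The authors' test of promoter usage, which scores the shift between start-site groups as a square-rooted Jensen-Shannon divergence (0 for identical usage), called fne in prepupae at a score of 0.191 (q = 0.0231). Of the 10 entries 2 could be tested there. Over all tested entries 4.59%, 8.43% and 10.2% were called by stage. The score was 0.144 in stationary larvae (q = 0.211) and 0.0387 in wandering larvae (q = 0.999). The difference of the last group's effect between prepupae and wandering larvae was 2.38 ± 1.51 and did not pass (two-sided normal test, adjusted over all groups). Such differences passed in 0.00974% of start-site groups for stationary minus wandering, 0.0698% for prepupae minus stationary and 0.178% for prepupae minus wandering. The isoform table does not carry this rise. The 13 fne isoforms summed to 39.1 FPKM in trans-heterozygous prepupae, 8.25 FPKM short of the entry, and to 33.2 FPKM in stationary larvae, 6.60 FPKM short, which are the levels of the last group. In w1118 they summed to 38.9 FPKM in prepupae and 35.1 FPKM in stationary larvae, equal to the entry. A sum more than 1% away from the entry occurred in 1.24%, 1.61% and 1.55% of tested entries by stage. The level of the last group is thus part of the gene entry and of the start-site table, and no isoform value stands behind it in trans-heterozygous stationary larvae and prepupae. One fne isoform held 1.55 and 0.862 FPKM in w1118 at these stages, the levels of the last group there. It was at 0 in trans-heterozygotes, the opposite direction, and was not tested. The promoter usage score draws on the same start-site levels, so it is not separate evidence.

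**Figure D3:**
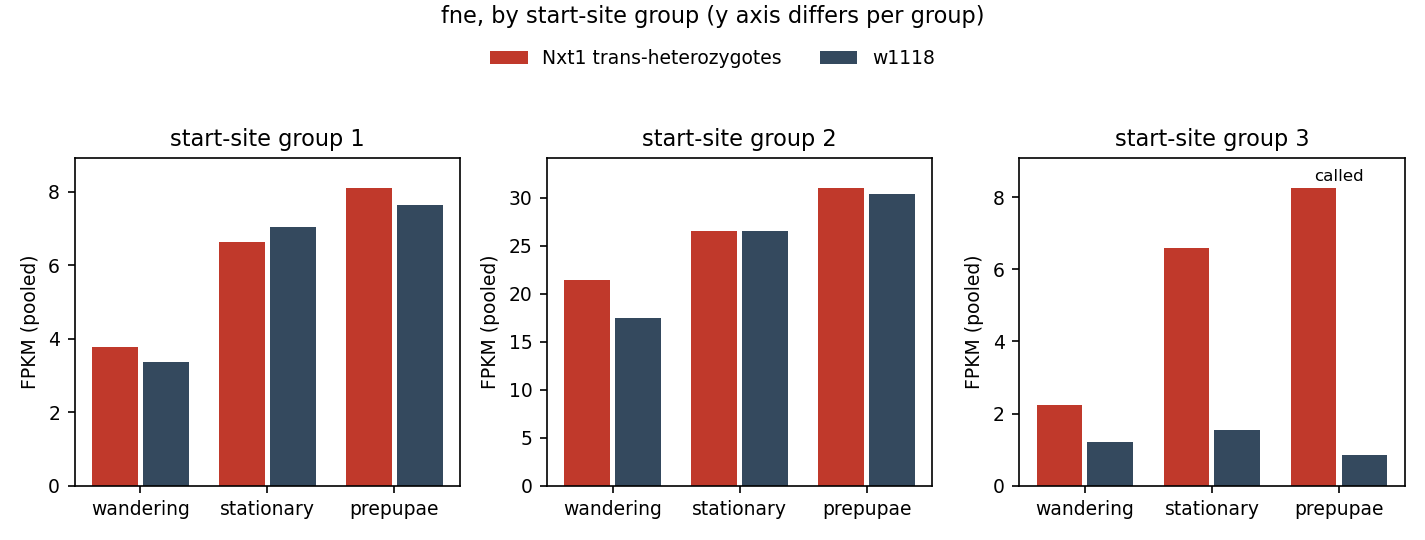
Pooled FPKM (y axis, differing per panel) of the 3 fne start-site groups at each stage (x axis), with trans-heterozygotes as red bars left of w1118 as dark bars. Groups 1 and 2 lay close between genotypes in prepupae, while group 3 had 8.25 FPKM in trans-heterozygotes and 0.862 FPKM in w1118, the 1 called difference.

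In brp the third start-site group, which holds a single isoform, had 5.62 FPKM in trans-heterozygous prepupae and 3.78 FPKM in w1118 (1.49-fold, q = 0.124), while the first had 2.64 and 3.40 FPKM. The brp promoter usage score in prepupae was 0.111 (q = 0.141) and its coding-sequence usage score 0.174 (q = 0.111), neither called. VGlut had 1.79 FPKM from its first group in trans-heterozygous prepupae and 0.355 FPKM in w1118 (q = 0.171). In wandering larvae the last of its 3 groups had 2.18 FPKM in trans-heterozygotes and 0.774 FPKM in w1118 (q = 0.432). No splicing or coding-sequence usage test of the 10 genes was called, with 2 or 3 tests of each kind per stage. Over all entries the called shares were 2.69%, 5.88% and 9.78% for splicing, and 1.93%, 6% and 7.47% for coding-sequence usage.

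At the isoform level 183 isoforms carried the name of 1 of the 10 genes, 110 of them para. Only 11, 14 and 13 were tested by stage and none was called, against 7.36%, 11.3% and 12.2% of all tested isoforms, and 131, 127 and 131 were at 0 in both genotypes. The most abundant elav isoform had 18.7, 21.5 and 21.4 FPKM in trans-heterozygotes and 12.95, 16.8 and 18.1 FPKM in w1118 (q = 0.154 in wandering larvae and 0.372 in stationary larvae, not tested in prepupae). Another 2 elav isoforms, with too little data for the authors' test, had 6.16 and 2.31 FPKM in trans-heterozygous prepupae and 2.09 and 7.85 FPKM in w1118. One Csp isoform had 29.99 FPKM in trans-heterozygous stationary larvae and 12.7 FPKM in w1118 (q = 0.125), beside another with 28.0 and 34.7 FPKM (q = 0.742). These isoforms differed between the genotypes in pooled level, and no test passed.

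The 10 genes sat in a wider neuronal list of 109 entries, grouped by role, of which 87, 92 and 90 were tested by stage. In it 1 entry rose at each stage, and 3, 2 and 2 fell, which is 4.60%, 3.26% and 3.33% of those tested against 11.8%, 17.9% and 16.9% of all entries. The list's median log2 ratio was 0.19, 0.11 and 0.04 by stage. Of its tested entries, the 10 genes included, 72.4%, 68.5% and 55.6% were higher in trans-heterozygotes. These were 63 of 87, 63 of 92 and 50 of 90 entries by stage, and 9 of them at each stage were among the 10 genes. In larvae the lean was thus not particular to the 10. In prepupae the list's share, which includes the 10, lay nearer to the 45.1% of all tested entries. The 1 rise in wandering larvae was qvr, a regulator of the Shaker potassium channel, at 10.8 FPKM in trans-heterozygotes and 5.95 FPKM in w1118 (q = 0.00281). In stationary larvae Snap25, a SNARE protein of vesicle fusion, rose to 9.16 FPKM in trans-heterozygotes, against 4.90 FPKM in w1118 (q = 0.0477). In prepupae SK, a calcium-activated potassium channel, fell to 2.46 FPKM in trans-heterozygotes, against 5.52 FPKM in w1118 (q = 0.0153).

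Other calls came from the dopamine synthesis genes. The tyrosine hydroxylase gene ple, which also acts in the cuticle, fell in wandering larvae to 98.4 FPKM in trans-heterozygotes, against 252 FPKM in w1118 (q = 2.57e-06). It fell in stationary larvae to 930 FPKM in trans-heterozygotes, against 2377 FPKM in w1118 (q = 0.000750), and was not called in prepupae (q = 0.312). Dopa decarboxylase, Ddc, likewise used in the cuticle, fell in wandering larvae to 63.6 FPKM in trans-heterozygotes, against 183 FPKM in w1118. In prepupae Ddc rose to 89.2 FPKM in trans-heterozygotes, against 60.3 FPKM in w1118 (q = 0.0130). Whole animals do not show whether such transcripts came from neurons or epidermis.

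By role, the 3 pan-neuronal, 6 active zone and 9 cytoskeleton and adhesion entries held no called gene at any stage, and neither did the endocytosis, neuronal receptor or neuropeptide entries. Among active zone genes unc-13, a priming factor, had 27.1, 30.6 and 33.98 FPKM in trans-heterozygotes and 18.4, 24.9 and 27.9 FPKM in w1118. Liprin-alpha, also of the active zone, had log2 fold changes of 0.14, 0.03 and -0.05 by stage. Of the 6 active zone entries 6, 5 and 3 were higher in trans-heterozygotes by stage. Among the receptors the acetylcholine receptor subunit nAcRbeta-21C had 11.6, 11.7 and 9.29 FPKM in trans-heterozygotes and 10.6, 12.3 and 12.4 FPKM in w1118. Of the vesicle genes, Rop, the Munc18 relative, had 33.5, 32.3 and 32.1 FPKM in trans-heterozygotes and 31.6, 38.8 and 40.8 FPKM in w1118. None of these genes was called, and the sign of Liprin-alpha, nAcRbeta-21C and Rop was not the same at all stages. The median log2((FPKM + 1) ratio) in prepupae was -0.05 for the endocytosis entries and -0.09 for the neuropeptide entries. The other neuronal role lists had positive medians there.

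**Figure D4:**
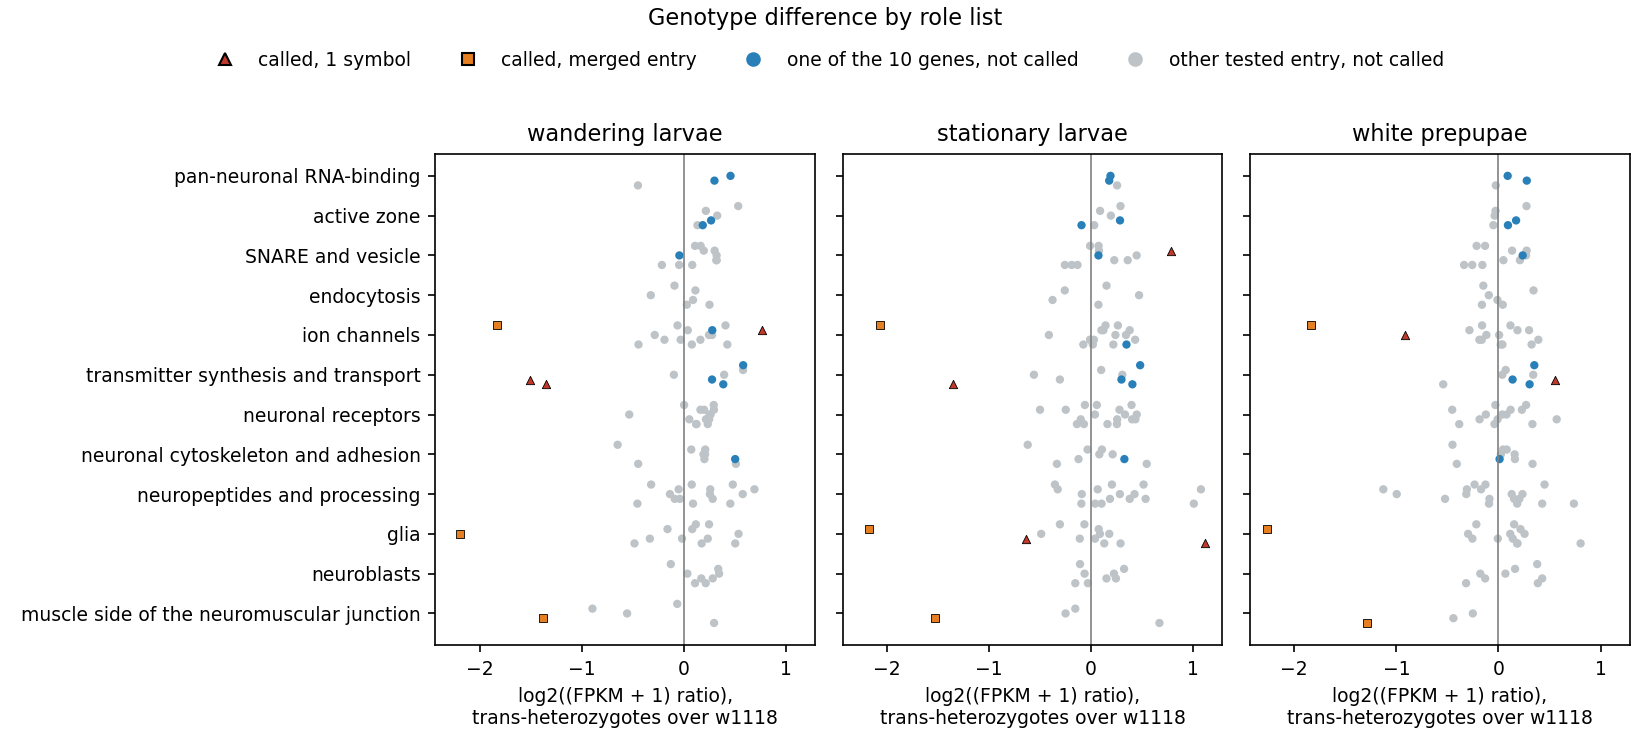
Log2((FPKM + 1) ratio) of trans-heterozygotes over w1118 (x axis) for each tested entry, by role list (rows), 1 panel per stage. Blue points are the 10 genes, red triangles called entries with 1 symbol, orange squares called merged entries and grey points the rest. The orange squares hold the lowest value of every panel.

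Several symbols shared 1 entry in 12 of 137 list entries and in 448 of all 14542. The entry of tipE, an auxiliary subunit of the para channel, is merged with CG18675 and fell at all 3 stages, to 4.05, 4.23 and 4.07 FPKM in trans-heterozygotes, against 16.9, 21.004 and 17.1 FPKM in w1118. Its CG18675 isoforms summed to 2.91, 3.06 and 2.93 FPKM in trans-heterozygotes, against 15.7, 19.6 and 15.7 FPKM in w1118. The tipE isoforms summed to 0.464, 1.17 and 1.13 FPKM in trans-heterozygotes and to 1.19, 1.43 and 1.39 FPKM in w1118, so most of the difference lay in CG18675. In trans-heterozygous wandering larvae the isoforms fell short of the entry by 0.675 FPKM. The same held for the entry of gcm, the glial determination factor, merged with CG31709. It fell to 25.6, 33.4 and 26.4 FPKM in trans-heterozygotes, against 120, 154 and 131 FPKM in w1118, with gcm isoforms at 2.38, 2.76 and 2.94 FPKM in trans-heterozygotes and 1.80, 1.66 and 3.07 FPKM in w1118. The entry of the muscle glutamate receptor subunit GluRIIA, merged with CG14017, fell to 2.27, 2.35 and 1.79 FPKM in trans-heterozygotes, against 7.52, 8.67 and 5.84 FPKM in w1118. Its GluRIIA isoforms had 2.16, 2.05 and 1.64 FPKM in trans-heterozygotes and 3.798, 2.79 and 1.96 FPKM in w1118.

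Markers of other cells that meet neurons were read beside these values, because in whole animals fewer cells of a type and less RNA per cell cannot be told apart. Of the glial entries 12, 13 and 13 were tested by stage, 0, 1 and 0 rose and 1, 2 and 1 fell. The called share was 8.33%, 23.1% and 7.69% by stage, against 11.8%, 17.9% and 16.9% of all tested entries. Among glial entries with 1 symbol, Eaat1, the glial glutamate transporter, rose in stationary larvae to 7.81 FPKM in trans-heterozygotes, against 3.06 FPKM in w1118 (q = 0.0244). Gs2, glutamine synthetase, fell there to 611 FPKM in trans-heterozygotes, against 950 FPKM in w1118 (q = 0.0369). The pan-glial factor repo had 3.28, 2.70 and 4.003 FPKM in trans-heterozygotes and 1.95, 2.52 and 3.31 FPKM in w1118, and was not called. The summed level of the glial list was 834, 910 and 710 FPKM in trans-heterozygotes, against 1146, 1360 and 853 FPKM in w1118, with Gs2 as its most abundant entry. Without its merged entries, gcm with CG31709 among them, the glial sum was 757, 806 and 578 FPKM in trans-heterozygotes, against 982, 1140 and 634 FPKM in w1118. The median log2((FPKM + 1) ratio) of the tested glial entries was nevertheless 0.10, 0.04 and 0.14 by stage. Of these entries 7 of 12, 7 of 13 and 8 of 13 were higher in trans-heterozygotes. None of the 8 neuroblast genes was called at any stage, against the same shares of all tested entries. Their sum was 156, 193 and 209 FPKM in trans-heterozygotes and 141, 204 and 194 FPKM in w1118. Their median log2 ratio was 0.19, 0.06 and 0.12 by stage, with 7, 4 and 5 of 8 higher in trans-heterozygotes. In wandering larvae brat alone gave 65.5 FPKM of the sum in trans-heterozygotes and 56.3 FPKM in w1118. Whole animals do not show how much of these levels came from neuroblasts. The list for the muscle side of the neuromuscular junction summed to 46.0, 42.9 and 38.8 FPKM in trans-heterozygotes and to 58.1, 53.1 and 50.6 FPKM in w1118. Without its merged entries that sum was 39.1, 36.0 and 34.6 FPKM in trans-heterozygotes, against 41.1, 38.8 and 41.2 FPKM in w1118. The median log2 ratio of its tested entries was -0.56, -0.20 and -0.44 by stage. Without merged entries (3, 2 and 1 tested) it was -0.06, 0.26 and -0.25. No listed marker was at 0 in either genotype. The part of these other cells in the levels of the 10 genes was not tested.

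Of the 10 genes, 5 lie on the X chromosome and 5 on autosomes. The 5 X-linked genes (elav, fne, para, cac and futsch) had median log2 ratios of 0.30, 0.19 and 0.09 by stage (4 of them tested in prepupae), and the 5 autosomal genes 0.28, 0.30 and 0.24. Over all tested entries the medians were 0.02, -0.03 and -0.05 for the X and -0.02, -0.05 and -0.05 for autosomes. The positive medians were thus present on both kinds of chromosome.

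Among 3918 entries with 1 symbol, tested at all 3 stages and above 5 FPKM, those closest to the 10 genes' median pattern over the 3 stages were mgr, Rbm13, Klp61F, Fur2 and HDAC4. Closeness was the Euclidean distance over the 3 log2((FPKM + 1) ratios). For mgr the levels were 34.6, 36.8 and 36.7 FPKM in trans-heterozygotes, against 28.1, 29.8 and 32.3 FPKM in w1118, at a distance of 0.00894.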

How the data were processed

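Whole-animal RNA (0.5 ug) was made into ScriptSeq libraries and sequenced as 100 bp paired ends, per the labels' protocols. Bowtie 1.1.1, Cufflinks and Cuffdiff are named in the submitters' processing notes. The genome build is not given in the sources used here. The authors deposited 18 Cuffdiff tables, 6 per stage, with 1 pooled FPKM per genotype. The deposited log2 fold change (trans-heterozygotes over w1118), test statistic (a score of opposite sign), p-value and q-value columns were used. They matched each other at a tolerance of 0.001 in 100% of the 10668, 10948 and 10547 entries checked by stage. The tested entries numbered 10898, 11128 and 10780. Infinite values were left out. Standard errors are the size of the log2 fold change over that of the statistic. Starts were raised by 1, because 991 of 1357 entries with ends equal to BDGP6 matched its start that way. Strands come from BDGP6 by symbol.

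Stage differences were tested on normal tails in Python 3.11.15 (scipy 1.17.1, pandas 2.3.3), a procedure tested on simulated data. The simulation took the derived errors as true and planted large changes only in entries with small errors. It therefore cannot check those errors or show whether changes as small as those of the 10 genes could be found. A pseudocount of 1 FPKM was added for ratios. Of 153 listed symbols, 138 matched an entry. The rule for naming took the 10 genes, called or most abundant isoforms, up to 4 called and the 2 highest uncalled entries per role list, and the 5 of like pattern. Not every entry so taken is printed. The glial gene repo and some uncalled isoforms were named outside this rule. Members and lists were chosen with earlier results of these data known.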

Additional observations from a re-analysis of the deposited data

Results flagged for a closer look

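The genotype effect on Ddc, dopa decarboxylase, differed between stages. Over the stages in order its log2 fold change was -1.52 ± 0.23, -0.31 ± 0.21 and 0.56 ± 0.18. The effect in stationary larvae minus that in wandering larvae was 1.22 ± 0.31 (two-sided normal test on errors derived from the authors' statistics, q = 0.0199 over all entries). The effect in prepupae minus that in wandering larvae was 2.09 ± 0.29 (q = 1.18e-09). Ddc was called lower in trans-heterozygous wandering larvae and higher in trans-heterozygous prepupae. Among the 10 neuronal genes no such difference passed.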

How the results depend on the processing

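The count of 0 called genes among the 10 could not rise at q at most 0.01 or at a larger FPKM of at least 1. Nor could it rise over the 9 entries with 1 symbol, and recomputed Benjamini-Hochberg values equalled the deposited q-values. With isoforms the count stayed at 0 at every stage, but no isoform named para, Cha or futsch was tested. Through start-site groups it became 1 in prepupae (fne). The members' median log2 ratio ran from 0.29 to 0.40 in wandering larvae, 0.28 to 0.34 in stationary larvae and 0.14 to 0.22 in prepupae over the alternatives tried. The sign of none of 90 member values recomputed with another pseudocount or centring turned, which was largely fixed beforehand. A pseudocount cannot turn the sign of a ratio. Centring subtracted a negative median at each stage, so it could turn only values below 0. On isoform sums the sign of fne in stationary larvae turned, at a fold of 0.946 in place of 1.13. At q at most 0.01 the wider neuronal list had 1 called entry in prepupae in place of 3, the other cell type lists 2 in stationary larvae in place of 4, and the usage tests 0 in prepupae in place of 1. With merged entries left out, the other cell type lists had 0, 2 and 0 called entries by stage in place of 2, 4 and 2. The limits at q at most 0.01 for the usage tests and other cell type lists, the removal of merged entries from the lists, and the isoform sums were chosen after seeing the data. No paired analysis was possible because the tables hold 1 pooled value per genotype and stage, and fits without 1 replicate were not run for the same reason. Depth is unknown, so no counting interval can be given.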
